A study of Gallus gallus with 10 samples.

Results

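RNA from the ectopic optic tectum induced in chicken embryos (iTeO) was compared with RNA from chicken cerebral cortex, called NCC for natural chicken cerebral cortex. The 4 iTeO and the 3 NCC libraries of a series of 10 were used, and the labels do not say whether any of them share an embryo. iTeO is the tissue that formed in the anterior diencephalon of chick embryos after implantation of neuroepithelial cells (NECs) made from human pluripotent stem cells. NECs came from a human embryonic stem cell line in 2 libraries, named iTeO (ES), and from a human induced pluripotent stem cell line in the other two, named iTeO (iPS). The remaining 3 libraries hold natural optic tectum (TeO), which served as the reference tissue for the induced one. All 10 samples are labelled as wild-type chicken, no age is given in their labels, and each kind of iTeO rests on NECs of 1 human line. Nothing in the sources states whether a library holds tissue of 1 embryo or several, so the p-values measure the spread between these libraries, which may in part be technical.

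The optic tectum is the roof of the midbrain and the main visual centre of birds, a layered structure in which axons from the retina form a map of the visual field. The cerebral cortex of the chicken, its pallium, belongs to the telencephalon and is built from other progenitors. The paper also names NCC as chicken cerebrum, and whether the NCC libraries hold pallium alone was not checked. The boundary between midbrain and hindbrain carries the isthmic organizer, a signaling centre that releases FGF8 and WNT1 and induces tectum in the neuroepithelium anterior to it. A comparison of iTeO with NCC therefore asks how far a tissue that grew in a forebrain territory differs in its transcripts from a forebrain tissue. A comparison made separately with either kind of NECs asks how far both kinds give the same genes. In tissue samples, fewer cells of a type and less RNA per cell cannot be told apart.

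The values are raw read counts on chicken genes. Of 24881 chicken genes listed, 19227 had a count in at least 1 of the 7 libraries, and 13999 passed the filter on low counts and were tested. For iTeO (ES) the libraries held 10527402 and 9781160 chicken counts, for iTeO (iPS) 7809002 and 8475888, and for NCC between 11081611 and 11615474, replicate 1 being given first here and below. The files pair no gene names with their Ensembl identifiers and 0 of these matched the gene table used here, so no gene symbols, cell type markers, gene lists or gene lengths could be applied, and the tissue labels were not checked against marker genes. Levels are given as CPM (counts relative to library size, after scaling by the trimmed mean of M values, TMM) and are not corrected for gene length.

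The libraries also differed in a way that did not follow the tissues. A set of 21 genes, chosen after their values were seen because some TeO libraries had them on and others off, was on in 5 libraries, where it summed to between 421 and 451 CPM, namely NCC replicate 3, TeO replicates 2 and 3 and the whole of iTeO (ES). It was off in the others, among them the whole of iTeO (iPS) and NCC replicates 1 and 2, where it summed to between 0.376 and 3.42 CPM. Genes of a stretch of 1200 neighbouring rows of the table shifted with this set. The stretch was also chosen after its values were seen, as bins of 200 rows with a log2 shift threshold of 0.35. Its shift between libraries with the set on and off is thus in part fixed and carries no test. Of the stretch genes not in the set, 627 were tested. The median log2 level of these 627, relative to the NCC mean, was 0.40 and 0.52 in the iTeO (iPS) libraries and -0.10 in each iTeO (ES) library, and it was -0.37 in NCC replicate 3 and 0.14 and 0.16 in replicates 1 and 2. The human share of the counts was 0.371% and 0.129% for iTeO (ES), 0.299% and 0.124% for iTeO (iPS) and between 0.132% and 0.137% for NCC.

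Transcript levels differed between iTeO and NCC in a large part of the chicken genes. A gene was called where the quasi-likelihood test of edgeR gave an adjusted p-value (Benjamini-Hochberg) below 0.05 and the log2 fold change was larger than 1 in size. This held for 2369 genes (16.9% of 13999 tested). Of these, 1382 (9.87%) were higher in iTeO and 987 (7.05%) lower. Without the set of 21 genes and the stretch that shifts with it, 2282 genes were called. With the fold threshold left out, 7204 genes (51.5%) passed the adjusted p-value, and with an absolute log2 fold change above 2, 624 (4.46%) were called, 399 higher (2.85%) and 225 lower (1.61%). Most of the differences that passed the p-value were thus under the fold threshold, at a median standard error of 0.14 on the log2 scale over all tested genes. Over all 13999 genes the log2 fold change lay between -0.83 and 1.03 for the central 80% of genes, with a median of 0.01 and a median absolute value of 0.40.

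**Figure D1:**
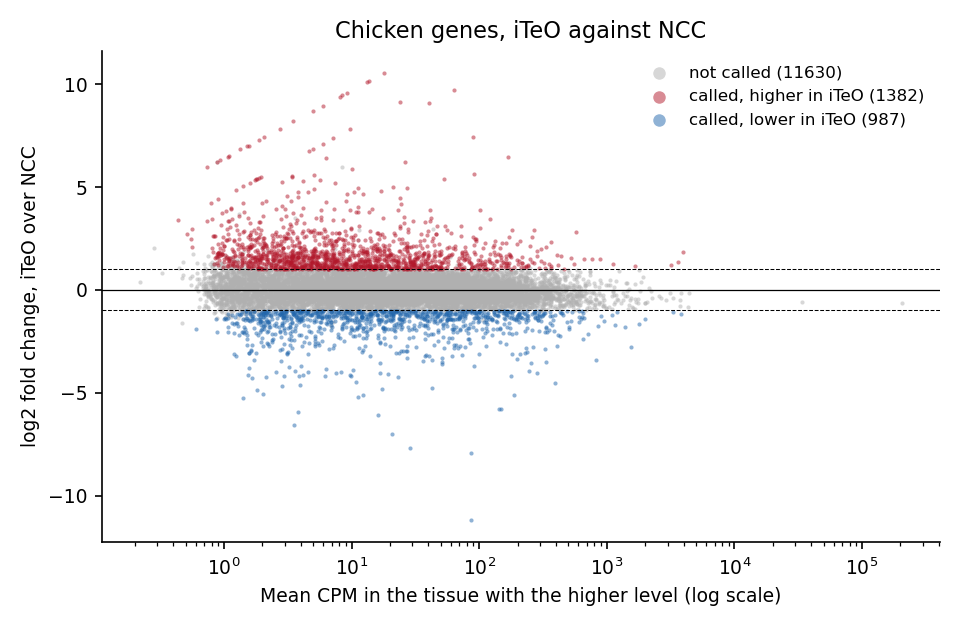
Each point is a chicken gene, placed by its mean CPM in the tissue with the higher level (log axis) and by its log2 fold change of iTeO over NCC, with dashed lines at the fold threshold of 1 in either direction. The 1382 genes called higher in iTeO are more numerous than the 987 called lower at large fold changes (74 against 37 past 4), and the line of points that climbs from the upper left holds genes with no counts in NCC, whose fitted fold change depends on the prior count.

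The direction of the differences changed with their size. Among genes that passed the adjusted p-value with an absolute log2 fold change of at most 0.5, 1002 were higher and 1247 lower in iTeO, and between 0.5 and 1 the counts were 1245 and 1341. Past the threshold of 1 the order turned. Between 1 and 1.5 there were 631 higher and 554 lower, and between 1.5 and 2 there were 352 and 208. Past 2 there were 399 higher and 225 lower, past 3 there were 138 and 83, and past 4 there were 74 and 37. The share of higher genes was therefore 46.5% up to a log2 fold change of 1, 58.3% past 1, 63.9% past 2 and 66.7% past 4. The lean towards lower genes among the small changes depended on the scaling, since the share of higher genes up to 1 was 47.4% with the size factors of DESeq2, 50.4% with upper quartile factors and 70.6% with library totals alone, the last 2 scalings being chosen after seeing the data. Past 1 the higher genes were the majority under each of these scalings, with 58.9%, 61.0% and 74.3%. Library totals alone moved the median log2 fold change of all tested genes to 0.23, and the split was then 1938 higher and 672 lower. Size was not separated from level, here the mean CPM in the tissue with the higher level. Under TMM and at any fold change, 1074 genes between 1 and 10 CPM passed the adjusted p-value as higher and 694 as lower. Between 10 and 100 CPM there were 1932 and 1853, and at 100 CPM or more 576 and 1025.

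**Figure D2:**
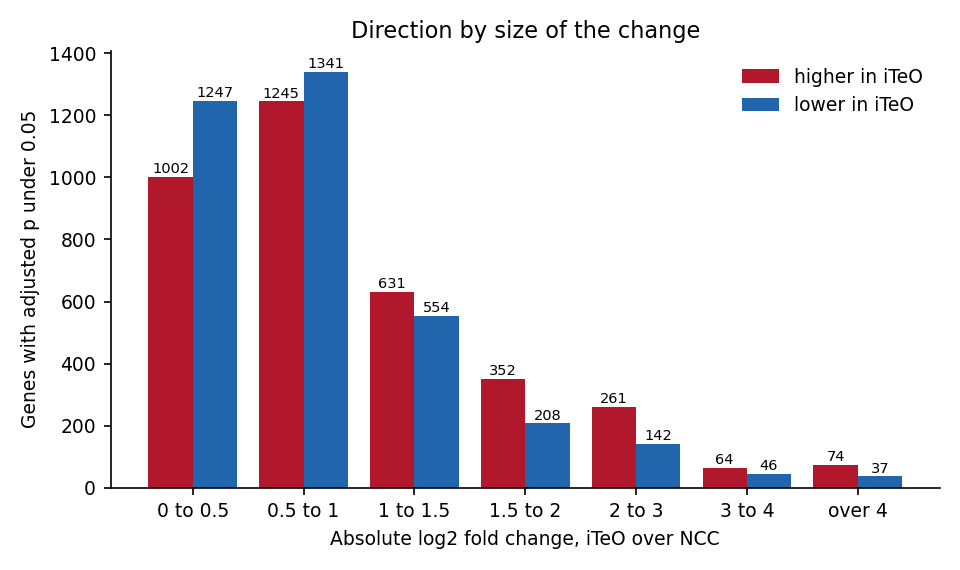
Bars give the number of genes with an adjusted p-value under 0.05 between iTeO and NCC, by absolute log2 fold change and direction. Lower genes are more numerous up to a log2 fold change of 1 (1341 against 1245 between 0.5 and 1) and higher genes past it (74 against 37 over 4), under TMM scaling.

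The called genes were mostly of low or middle level, and the direction differed by level. Genes were grouped by their mean CPM in the tissue with the higher level, which groups them by reads and not by transcript number. Of 283 genes under 1 CPM, 49 were called, 46 higher and 3 lower in iTeO. The filter bears on this split, as it acted on counts before TMM scaling. TMM factors, which divide the counts, were 1.07 to 1.10 in iTeO and 0.93 to 0.95 in NCC. A gene that just passed the filter through NCC thus had a higher CPM than one that passed through iTeO. No direction is therefore read from this level. The part of the filter in this split, and among the lowest genes of the level above, was not tested. Of 4547 genes between 1 and 10 CPM, 1120 (24.6%) were called, 730 higher and 390 lower in iTeO. Of 6907 genes between 10 and 100 CPM, 899 (13.02%) were called, 494 higher and 405 lower. Of 2262 genes of at least 100 CPM, 301 (13.3%) were called, of which 112 were higher and 189 lower. The most counted genes thus leaned to NCC under TMM, where higher genes made up 37.2% of those called, and so they did with the size factors of DESeq2 (37.5%) and upper quartile factors (40.5%), but with library totals alone 60.9% of them were higher in iTeO. The median standard error of the log2 fold change fell from 0.27 between 1 and 10 CPM to 0.12 between 10 and 100 and 0.08 above. The larger share called among the genes of low level was therefore found at the larger error. At that level 89 genes passed the fold threshold without passing the p-value, against 8 and 3 in the levels above. With the fold threshold left out the order of the levels turned. The adjusted p-value was then passed by 38.9% of the genes between 1 and 10 CPM, 54.8% between 10 and 100 and 70.8% above. The larger share at low level thus held only with the fold threshold.

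For most of the called genes the iTeO and NCC libraries did not overlap. These genes were chosen by the same contrast, so this is in part fixed by the choice and carries no test. Among the 1382 higher genes, the lowest iTeO library lay above the highest NCC library in 1315 (95.2%), and among the 987 lower genes the order was reversed in 956 (96.9%). Over all tested genes the tissues did not overlap in 52.2%, with 26.1% in either direction. Single libraries were compared over the 8672 genes with a mean of at least 10 CPM over the iTeO and NCC libraries. Between 978 and 1227 of these genes (11.3% to 14.1%) differed more than 2-fold between an iTeO and an NCC library. Between an iTeO (ES) and an iTeO (iPS) library the number was 96 to 146 (1.11% to 1.68%). It was 133 between the iTeO (ES) libraries, 18 between the iTeO (iPS) libraries and 19 to 69 between NCC libraries. Pairs of iTeO and TeO libraries lay between these ranges, with 363 to 562 genes, and pairs of TeO and NCC libraries had 861 to 995. TeO levels played no part in the choice of the genes, so the counts with TeO are not on an equal footing with the others. The ES-derived and iPS-derived libraries thus differed from each other by about as many genes as the iTeO (ES) libraries differed among themselves. They differed by more than the iTeO (iPS) or the NCC libraries did. Each pair of the 2 kinds, however, joined a library with the set of 21 genes on to one with it off. Where the set was alike, NCC replicates 1 and 2 differed in 19 genes and TeO replicates 2 and 3 in 10. Where it was not, NCC pairs had 64 and 69 and TeO pairs 51 and 59. The part of the set and its stretch in the counts between the kinds was not tested.

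Counts moved with the called genes in every library. For iTeO (ES) the 1382 higher genes took 5.77% and 5.93% of the chicken counts, and for iTeO (iPS) 5.83% and 6.50%. In NCC they took 1.75% to 1.88%, and in TeO 5.37% to 5.65%. The 987 lower genes took 3.06% to 3.22% of the counts in the iTeO libraries, 7.38% to 7.796% in NCC and 3.65% to 3.66% in TeO. These shares describe genes chosen by the same contrast and carry no test. The higher genes together took 6.01% of the iTeO counts, of which the 10 most counted took 1.86%, and 46 genes made up 50% of the set's counts. The lower genes took 7.64% of the NCC counts, of which the 10 most counted took 1.71%, and 58 genes made up 50%. The median log2 fold change was 1.57 in the higher set, whose median level was 7.47 CPM in iTeO and 2.25 CPM in NCC, and -1.42 in the lower set, with 5.09 CPM in iTeO and 16.8 CPM in NCC. The median over the higher genes of each library's log2 difference from the NCC mean was 1.56 and 1.45 for iTeO (ES) and 1.43 and 1.49 for iTeO (iPS). For the lower genes it was -1.40, -1.46, -1.41 and -1.43 in the same order. All 4 libraries entered the choice of these genes, so close medians are in part fixed by it.

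The natural tectum was set beside the called genes, with the limit that its comparison with NCC uses the same NCC libraries and that with iTeO the same iTeO libraries. Between TeO and NCC, 1791 genes (12.8%) were called, 6.86% of the tested genes higher in TeO and 5.93% lower. Of the 1382 genes higher in iTeO, 636 were among them with the same direction, and of the 987 lower genes 597 were. The median log2 difference of TeO over NCC was 0.99 over the higher genes and -1.22 over the lower genes. These genes were chosen for a large difference between iTeO and NCC, so the size of their TeO medians is not compared with that of iTeO. Between iTeO and TeO, 950 genes (6.79%) were called, 4.04% of the tested genes higher in iTeO and 2.75% lower. Of the genes higher in iTeO than in NCC, 386 were also higher in iTeO than in TeO, 42 were lower and 954 were not called. Of the lower genes, 141 were also lower in iTeO than in TeO, 17 were higher and 829 were not called. The genes higher in iTeO thus included a subset that also lay above the natural tectum. For the genes not called, the difference from TeO missed the p-value or the fold threshold, which does not show that they were alike.

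A few genes were near absent from 1 of the tissues. In 11 genes every iTeO library had at least 5 CPM while no NCC library had more than 3 counts, and 10 of them had at least 5 CPM in every TeO library too. The reverse pattern, at least 5 CPM in every NCC library and at most 3 counts in every iTeO library, was met by 2 genes, both of them under 0.5 CPM in every TeO library.

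Candidates were called genes that were also called with both kinds of iTeO, with at least 5 CPM in the higher tissue and no overlap between libraries. They numbered 693 higher and 597 lower, and the 2 with the largest fitted fold change in each direction are given here. Where NCC had 0 counts this fold change depends on the prior count, so the first ranks need not be the largest differences in level. ENSGALG00000043204, for example, had 45.6 to 82.8 CPM in iTeO and at most 0.194 CPM in NCC. ENSGALG00000010436 had 9.89 and 25.3 CPM in the iTeO (ES) libraries, 20.7 and 15.9 CPM in the iTeO (iPS) libraries and 0 counts in every NCC library. Its mean in iTeO was 17.9 ± 6.61 CPM (SD, n = 4), at least 61.7-fold higher than the level that 3 counts in an NCC library would give (edgeR adjusted p = 4.99e-06). ENSGALG00000041850 had 9.11, 16.0, 16.4 and 13.6 CPM in the iTeO libraries in the same order and 0 counts in every NCC library, a level at least 47.4-fold higher (edgeR adjusted p = 3.31e-08). Both were lowest in iTeO (ES) replicate 1, and TeO had 10.5 to 11.9 CPM of the first and 10.02 to 10.7 CPM of the second.

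In the other direction, ENSGALG00000036378 had 82.5, 89.2 and 87.5 CPM in NCC replicates 1 to 3, and 1 count in iTeO (ES) replicate 1 and none in the other iTeO libraries. The ratio of NCC to iTeO was 3452, with an exact 95% interval from 619 to 136392 that covers counting error only (edgeR adjusted p = 5.02e-11). ENSGALG00000036364 had 91.5, 86.6 and 83.2 CPM in NCC and 1.21 CPM in iTeO (ES) replicate 1, from 14 counts, with 0 counts in the other 3 iTeO libraries. Its log2 fold change was -7.92 (SE 0.52, edgeR adjusted p = 2.94e-06). Without iTeO (ES) replicate 1 all iTeO libraries were at 0, and the NCC mean was at least 243-fold higher than the level of 3 counts in an iTeO library. The identifiers of these 2 genes are close in number, and with no gene models at hand it was not checked whether they share sequence or reads.

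**Figure D3:**
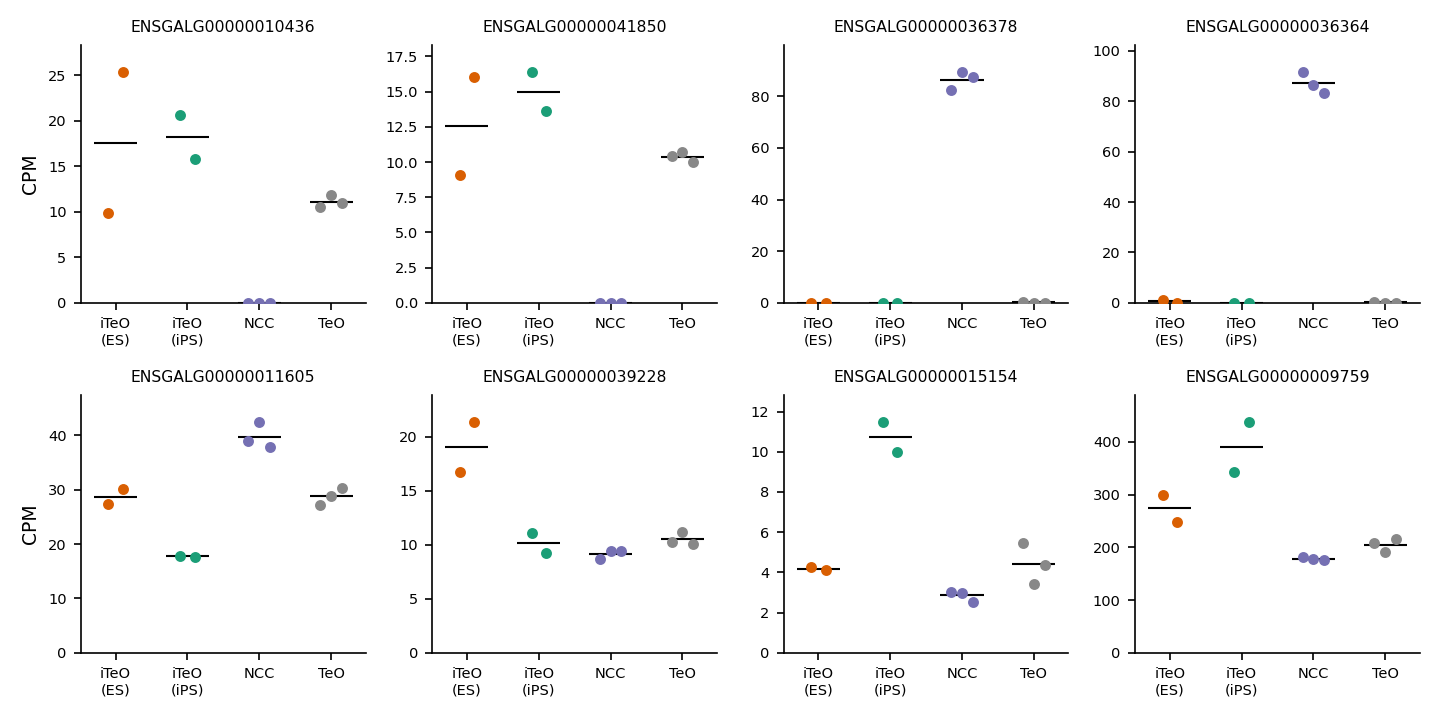
Each panel gives the CPM of 1 gene in every library (points) with the group mean (line), for iTeO (ES), iTeO (iPS), NCC and TeO. The upper row shows the genes with the largest differences between iTeO and NCC, where the tissues do not overlap, and the lower row those chosen among genes called with only 1 kind of iTeO, with log2 differences between the kinds from -1.36 to 0.91 that did not pass the direct test.

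Values that used no call did not overlap between iTeO and NCC either. After thinning to the smallest library, 16768 ± 159 chicken genes (SD, n = 4) had at least 1 count in iTeO and 16382 ± 105 (n = 3) in NCC, a difference of 385.5. The ranges were 16653 to 17001 and 16305 to 16501 and did not overlap. The 100 most counted genes of a library took 30.4% ± 1.39 of the chicken counts in iTeO (n = 4) and 36.2% ± 1.03 in NCC (n = 3), and 18.9% and 21.1% with the most counted gene left out. That gene was the same in every library and took 13.3% to 15.2% of the counts in iTeO and 18.5% to 20.2% in NCC. In TeO the number of detected genes was 16539 to 16734, above every NCC library and overlapping iTeO, and the share of the 100 most counted genes was 36.8% to 39.4%, which overlapped NCC and lay above every iTeO library. The latter measure thus set iTeO apart from both natural tissues. In both comparisons of iTeO with NCC the exact two-sided permutation test gave p = 0.0571, which is the smallest that 4 against 3 libraries allow, so neither could pass 0.05.

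Next, each kind of iTeO was tested alone against NCC, in fits that shared the 3 NCC libraries and no iTeO library. iTeO (ES) gave 2300 called genes (16.6% of 13889 tested), 1329 higher (9.57%) and 971 lower (6.99%) than in NCC. iTeO (iPS) gave 2312 (16.7% of 13807), 1264 higher (9.15%) and 1048 lower (7.59%). In the same direction 1746 genes were called with both kinds, 75.9% of the iTeO (ES) list and 75.5% of the iTeO (iPS) list, and 0 genes were called in opposite directions. Since the lists share their controls, no chance level is given for this number. Of the higher genes 971 were shared, 73.1% of the iTeO (ES) and 76.8% of the iTeO (iPS) genes, and of the lower genes 775, which was 79.8% and 74.0%. Of the shared genes 1725 were also among the 2369 called with the kinds pooled, and 93 of the 2369 were called with neither kind alone. Without the set of 21 genes and its stretch the lists held 2216 and 2237 genes and shared 1708.

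**Figure D4:**
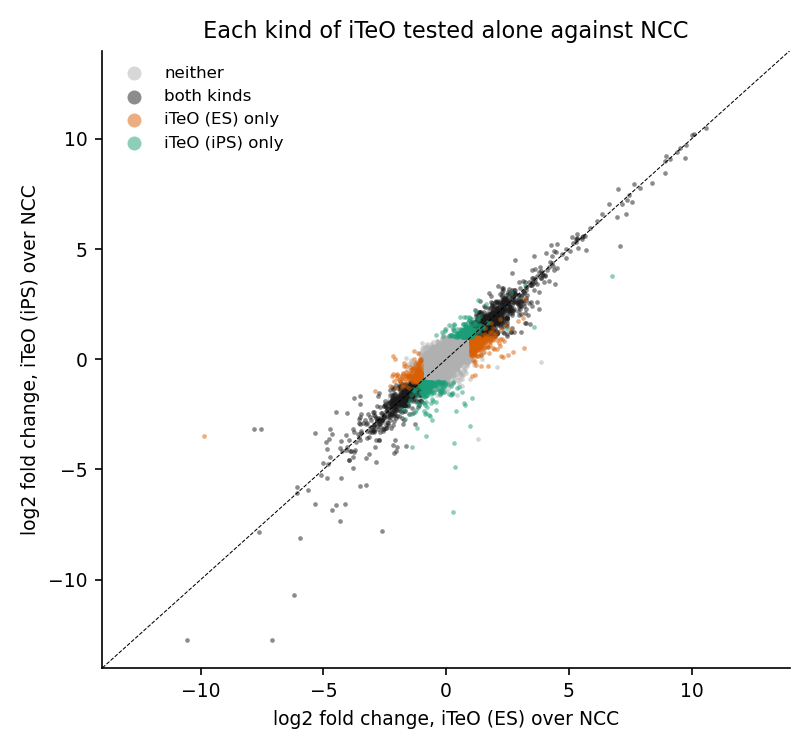
Each point is a chicken gene tested in all 3 fits, placed by its log2 fold change over NCC in iTeO (ES) and in iTeO (iPS), and coloured by whether it was called with both kinds, 1 kind or neither. Both axes use the same NCC libraries, so the points are not independent along the diagonal, and the genes called with 1 kind only lie beside the threshold of 1 or off the diagonal, with 0 called in opposite directions.

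With the threshold in the other kind held at 1, the share of a list that it gave too rose with size and level. Genes near the threshold in 1 kind miss it more easily in the other, so the rise with size is in part fixed. Of iTeO (ES) genes with an absolute log2 fold change between 1 and 1.5, 64.3% were also called with iTeO (iPS), against 84.1% between 1.5 and 2, 86.9% between 2 and 3 and 89.4% past 3. In the iTeO (iPS) list the shares were 63.3%, 84.0%, 90.2% and 90.2%. By level, 69.7% of the iTeO (ES) genes between 1 and 10 CPM were also called with iTeO (iPS), 81.6% between 10 and 100 CPM and 86.9% of those above, and for the iTeO (iPS) list 69.0%, 81.8% and 84.1%. At an adjusted p-value under 0.05 and any fold change, 4773 genes were shared, 85.1% of the 5608 with iTeO (ES) (40.4% of those tested) and 73.8% of the 6468 with iTeO (iPS) (46.8%). With an absolute log2 fold change above 2 applied in both fits, 483 were shared, 72.0% of the 671 with iTeO (ES) (4.83% of those tested) and 77.7% of the 622 with iTeO (iPS) (4.5%). Where the threshold moved in both fits, the iTeO (ES) share thus fell, from 85.1% at any fold to 72.0% past 2. The iTeO (iPS) share rose from 73.8% to 77.7%.

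**Figure D5:**
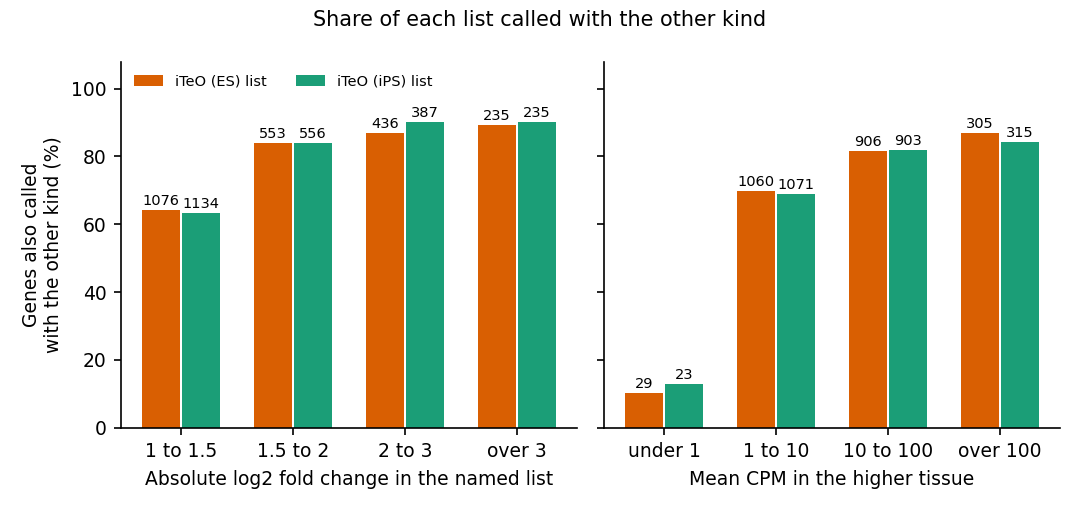
Bars give the percent of the genes called with 1 kind of iTeO against NCC that were also called with the other kind in the same direction, by absolute log2 fold change (left) and by mean CPM in the higher tissue (right), with the number of genes in the list above each bar. The share goes from 64.3% and 63.3% in the smallest differences to 89.4% and 90.2% in the largest. The threshold in the other kind stays at 1, so genes near it miss it more easily.

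Genes called with 1 kind only mostly missed a threshold in the other kind. Of the 554 genes called with iTeO (ES) only, 358 higher and 196 lower than in NCC, 249 passed the p-value with iTeO (iPS) and missed the fold, 41 passed the fold and missed the p-value, 188 missed both and 76 were not tested there. Of the 566 called with iTeO (iPS) only, 293 higher and 273 lower, the numbers with iTeO (ES) were 204, 79, 239 and 44. The other kind still moved the same way in the median. Among the genes higher with iTeO (ES) only, the median log2 difference from the NCC mean was 1.32 and 1.19 in the iTeO (ES) libraries and 0.80 and 0.74 in the iTeO (iPS) libraries. Among those higher with iTeO (iPS) only it was 1.19 and 1.23 in the iTeO (iPS) and 0.80 in each of the iTeO (ES) libraries. The lower genes of 1 kind only ran from -1.21 to -1.10 in the kind that called them and from -0.86 to -0.62 in the other kind. Over the shared genes the libraries lay close together, at 1.56 to 1.66 for the higher and -1.60 to -1.54 for the lower genes. All these medians are over genes chosen by the same contrast, and both kinds were set against the same NCC libraries. A direction shared by the kinds is thus in part fixed. TeO also moved that way, at 0.44 to 0.53 over the genes higher with iTeO (ES) only. It was at 0.65 to 0.75 over those higher with iTeO (iPS) only, and at -0.73 to -0.52 over the lower genes of 1 kind only.

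The difference between the kinds was then tested directly, with NCC out of the contrast. In the fit over all 10 libraries 2 of 14287 genes (0.014%) were called between iTeO (ES) and iTeO (iPS), while 1307 (9.15%) had an unadjusted p-value under 0.05. None of the genes called with 1 kind only was among the 2. At an unadjusted p-value under 0.05 were 168 (30.3%) of the 554 genes called with iTeO (ES) only and 149 (26.4%) of the 566 called with iTeO (iPS) only, with smallest adjusted p-values of 0.241 and 0.174, against 170 (9.75%) of the shared genes. The lists were chosen by disagreement or agreement of the same iTeO libraries. The gap between these shares is thus in part fixed by the choice and carries no test. Being called with 1 kind and not with the other was not shown to be a difference between the kinds for any gene by the direct test. The number of calls between the kinds moved with the tool and the libraries. DESeq2 called 40 genes, leaving out iTeO (ES) replicate 1 or 2 gave 66 and 117, leaving out iTeO (iPS) replicate 2 gave 0, leaving out NCC replicate 3 or any 1 of the TeO libraries gave 1, and the 4 iTeO libraries fitted alone gave 59. Of these 59, 20 belonged to the set of 21 genes on in both iTeO (ES) libraries and off in both iTeO (iPS) libraries, and 18 to the stretch that shifts with it. In the fit over all 10 libraries the set had a median log2 difference of 9.47 between the kinds (2.997 to 13.5) with 0 genes called, and the set was also on in some libraries and off in others of both TeO and NCC. Leaving out the set and its stretch again gave 2 calls. Within iTeO the set followed the kind in every library, so whatever goes with the set cannot be told apart from the kind. Its part in the other differences between the kinds was not tested.

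The median absolute log2 difference between the kinds was 0.53 over the genes called with iTeO (ES) only and 0.47 over those called with iTeO (iPS) only. These lists were chosen for a disagreement between the kinds, so the medians are in part fixed. The genes of these lists with the smallest p-values in the direct test, the extremes of the lists, follow. ENSGALG00000011605 had 27.3 and 30.1 CPM in iTeO (ES), 17.8 and 17.7 CPM in iTeO (iPS) and 39.0, 42.4 and 37.8 CPM in NCC. It was below NCC in every iTeO library and was called lower with iTeO (iPS) only, and the kinds differed by a log2 value of 0.69 (SE 0.12, edgeR adjusted p = 0.174). ENSGALG00000039228 had 16.7 and 21.3 CPM in iTeO (ES), 11.1 and 9.22 CPM in iTeO (iPS) and 8.64 to 9.45 CPM in NCC, so that the iTeO (iPS) libraries overlapped NCC. Its difference between the kinds was 0.91 (SE 0.17, edgeR adjusted p = 0.241), and it was called without iTeO (ES) replicate 1 (1.07, edgeR adjusted p = 0.0124). On the side of iTeO (iPS), ENSGALG00000015154 had 4.25 and 4.10 CPM in iTeO (ES), 11.5 and 9.97 CPM in iTeO (iPS) and 2.52 to 3.03 CPM in NCC, with a log2 difference of -1.36 between iTeO (ES) and iTeO (iPS) (SE 0.24, edgeR adjusted p = 0.174). It was called between the kinds with DESeq2 (-1.35, adjusted p = 0.0152) and without iTeO (ES) replicate 2 (-1.33, edgeR adjusted p = 0.0311). This gene lies in the stretch of rows that shifts with the set of 21. ENSGALG00000009759 had 299 and 249 CPM in iTeO (ES), 343 and 437 CPM in iTeO (iPS) and 176 to 182 CPM in NCC, above NCC in all 4 libraries, with a difference of -0.51 (SE 0.12, edgeR adjusted p = 0.274).

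The 2 genes called between the kinds, named after their values were seen, were not called against NCC with either kind. The level of ENSGALG00000015286 was 77.3 and 86.8 CPM in iTeO (ES), 39.4 and 38.6 CPM in iTeO (iPS) and 63.1 to 66.4 CPM in NCC, a log2 difference of 1.07 between the kinds (SE 0.11, edgeR adjusted p = 0.00396). That of ENSGALG00000003932 was 21.8 and 20.9 CPM in iTeO (ES), 8.84 and 10.5 CPM in iTeO (iPS) and 13.5 to 15.7 CPM in NCC, a log2 difference of 1.14 (SE 0.16, edgeR adjusted p = 0.0379). The second call was lost with the replicate block (edgeR adjusted p = 0.134), with thinned counts (0.074) and when any of 7 of the 10 libraries was left out, and the first without iTeO (ES) replicate 2 or iTeO (iPS) replicate 2. In both genes iTeO (ES) lay above NCC and iTeO (iPS) below, with no overlap. The log2 differences from NCC in the fits of each kind alone were 0.35 and -0.72 for the first and 0.54 and -0.60 for the second, all under the fold threshold.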

How the data were processed

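RNA from 4 iTeO, 3 TeO and 3 NCC samples was sequenced as a stranded total RNA library. The deposited values are raw counts per gene. The authors trimmed reads with Trimmomatic, aligned them with STAR 2.7.1a to a joined human (GRCh38) and chicken (galGal5) genome and counted uniquely mapped reads with featureCounts (Subread 1.6.4). Groups and replicate numbers follow the labels. The rows that name a chicken gene were used, except for the share of human counts, and 0 rows named no gene.

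The filter on low counts was filterByExpr, and the test the robust quasi-likelihood test of edgeR 4.0.16 (R 4.3.3) after TMM scaling, with Benjamini-Hochberg adjustment over all tested genes. iTeO against NCC and the direct test of the kinds used all 10 libraries (with 3 and 4 groups), and each kind against NCC used 5 libraries. Standard errors were derived from the F statistic, and fold changes were not shrunken. Single values per library were tested with exact permutation tests over 35 splits in Python 3.11.15. Intervals cover counting error only. The edgeR tests of iTeO and of each kind against NCC, and of the kinds against each other, were tried on simulated data. The other procedures were not.

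The comparisons, thresholds and genes were chosen with earlier results of these data known. The named genes are, by rule, 2 identifiers in each direction with the largest fold change called in all 3 fits, with 5 CPM or more in the tissue of higher level and no overlap, and 2 in each direction with the smallest direct p-value among genes called with 1 kind only. The alternatives were DESeq2 1.42.0 with and without ashr 2.2.63, its size factors, other scalings, glmTreat, no low-count filter, a minimum of 10 counts per library, thinned counts, other sets of libraries or groups in a fit, the replicate block and each library left out in turn. Replicate numbers were not taken as pairs, since the deviations of same-numbered libraries from their group means, gene by gene, correlated between -0.111 and 0.0191. The human share and the shares of the most counted genes did go with the replicate number in both kinds of iTeO, and why was not tested.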

Additional observations from a re-analysis of the deposited data

Results flagged for a closer look

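Between the kinds of iTeO, the direct test called ENSGALG00000015286 with a log2 difference of 1.07 and ENSGALG00000003932 with 1.14, both higher in iTeO (ES). The first lost its call without iTeO (ES) replicate 2 (log2 difference 0.98) or iTeO (iPS) replicate 2 (edgeR adjusted p = 0.189). The second lost it without either iTeO (iPS) library, any 1 of the TeO libraries or NCC replicate 1 or 3, with edgeR adjusted p-values of 0.0585 to 0.249. It was also lost with the replicate block (edgeR adjusted p = 0.134), crossed numbers (0.0576), thinned counts (0.074) and, as was the first, glmTreat.

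Among 19 sets of iTeO values examined for a library apart from the others, of which chance sets apart about 1 in 20, ENSGALG00000036364 stood apart in iTeO (ES) replicate 1 at 1.21 CPM and ENSGALG00000036378 in the same library at 0.0868 CPM, which is 1 count. The other iTeO libraries had 0 counts of both. With all others at 0 the rule sets apart any library that has a count, so the rate of 1 in 20 does not apply to these genes.

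Counts on human genes, which the comparisons did not use, exceeded their share in all TeO and NCC libraries in iTeO (ES) replicate 1 (0.371%, 95% Wilson interval 0.367% to 0.375%) and in iTeO (iPS) replicate 1 (0.299%, 0.295% to 0.302%). Their part in the results was not tested.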

How the results depend on the processing

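Under library totals alone the majority turned among called genes of at least 100 CPM (60.9% higher in iTeO) and among changes up to a log2 value of 1 (70.6%), and among the latter also with upper quartile factors (50.4%). No tested fold change of a named gene reversed under the alternatives run. Counts that moved by more than 1.5 times were the following. With at least 10 counts in every library, 1561 genes were called between iTeO and NCC, 876 of them higher in iTeO. Past 2 there were 245, with 142 higher and 103 lower (58.0% higher). Genes near 0 in a tissue are then not tested. With glmTreat, which tests against the fold threshold, 1060 were called (586 higher, 474 lower), 813 with iTeO (ES), 991 with iTeO (iPS), 669 with both and 0 between the kinds. Shared genes numbered 4773 at any fold and 483 past 2. Between the kinds, against 2 calls, DESeq2 gave 40, DESeq2 with ashr 15, thinned counts 1 and the 4 iTeO libraries alone 59, and the cause was not tested. Leaving out each library in turn gave 0 to 117 between the kinds, 2223 to 2439 between iTeO and NCC, 600 to 696 past 2, 1277 to 1416 higher, 946 to 1034 lower, 1972 to 2354 with iTeO (ES), 1996 to 2314 with iTeO (iPS) and 1534 to 1695 with both (67.3% to 78.5% and 69.1% to 77.6% of the lists). DESeq2 called 2342 genes between iTeO and NCC. With the fold changes shrunken by ashr it called 1882, with 1644 for iTeO (ES) alone, 1623 for iTeO (iPS) alone and 1248 with both. The replicate block gave 2334 between iTeO and NCC, 2279 and 2400 with each kind alone, 1734 with both and 1 between the kinds, and crossed numbers, chosen after seeing the data, also gave 1. With 2 libraries per kind, the median standard error of the log2 fold change against NCC was 0.17 for iTeO (ES) and 0.16 for iTeO (iPS), and genes under 1 CPM had a median standard error of 0.50 in the fit of all libraries.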
